A study of Mus musculus with 2 samples.

Results

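The B cell identity genes described here were 9 genes that mark the B cell stages before the plasma cell: the transcription factor genes Pax5, Ebf1, Bach2, Bcl6 and Spib, and the surface and antigen presentation genes Ms4a1, Cd79a, Cd79b and Cd74. They were chosen by name, as the rows of the deposited gene table whose symbol equals one of these, and all 9 were found among its 43346 features. The cells were X63/0 (X63-Ag8.653), a mouse plasmacytoma line of plasma cell type that makes no immunoglobulin of its own. It was either left untreated or given 30 mM cycloleucine, an amino acid analogue that lowers S-adenosylmethionine by blocking its synthesis, and harvested 3 h later. Total RNA depleted of ribosomal RNA was sequenced, and although the design text speaks of an experiment in triplicate, the data analysed here hold 1 library per group, so the differences below were not tested between replicates and carry no p-value. Both libraries come from the same established line, which limits them as a model of normal plasma cells.

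In B cells, Ebf1 and Pax5 switch on and hold the B cell programme, including the antigen receptor chains Cd79a and Cd79b that carry the signal of surface immunoglobulin. Bach2 and Bcl6 hold off plasma cell differentiation by repressing Prdm1, and Spib is an ETS family factor of mature B cells. When a B cell becomes a plasma cell, Prdm1 shuts down this programme, Pax5 included, and genes of secretion take over. The comparison asks which of these genes still had RNA in the plasmacytoma, and whether their RNA differed after cycloleucine.

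Gene reads totalled 27127865 without and 31951946 with cycloleucine, and 3 reads on 1 kb of exon equal 0.111 RPKM in the first and 0.0939 RPKM in the second. RPKM is the number of exon reads per kilobase of exon, scaled to the library's reads in genes. The plasma cell label held in both libraries: 13 of 15 plasma cell genes had an RPKM of at least 1 in each. In the untreated library 30.2% of all annotated features did. There the list was led by Mzb1 at 398, Igj at 165 and Xbp1 at 154, and its lowest gene was at 0.0489. Of 10 T and natural killer cell markers 1 reached an RPKM of 1, Cd2 at 4.74, and of 10 myeloid markers 1 did, Cd68 at 1.17. None of 8 fibroblast and none of 5 erythroid markers did, and Cd3d, Nkg7, S100a8, S100a9 and Hbb-bs had 0 exon reads in both libraries.

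A gene is called silent here when a library had at most 3 exon reads of it, trace when it had more but an RPKM under 1, and remaining when its RPKM was at least 1. In the untreated library 4 of the 9 genes remained, Cd79b, Cd74, Ms4a1 and Ebf1, where 30.2% of all annotated features did. Pax5, Spib and Cd79a were silent, 3 of 9, where 53.9% of annotated features were. Bach2 and Bcl6 were at trace levels. The lowest that remained, Ebf1, was not far above the bound of 1, at 1.41 RPKM, while the next below it, Bcl6, was at 0.0770. In the cycloleucine library the same 4 genes remained, Pax5 and Cd79a were silent, and Spib, with 4 reads in place of 3, counted as trace.

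**Figure D1:**
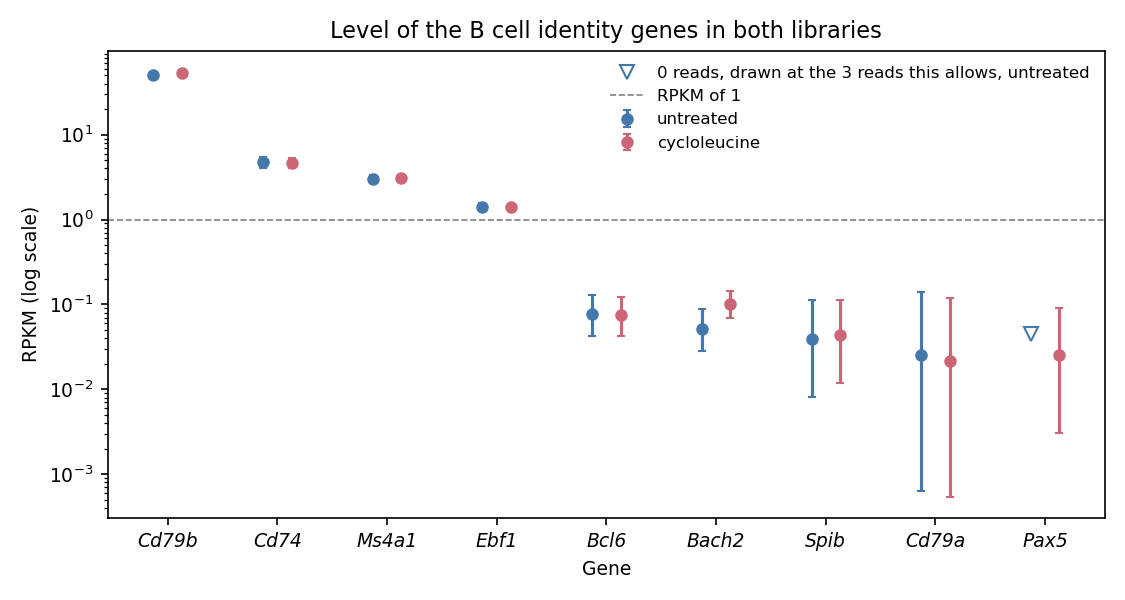
Level (RPKM, log scale) of each B cell identity gene in the untreated (blue) and cycloleucine (red) library, with exact Poisson intervals of the read count; the open triangle is Pax5 in the untreated library, with 0 reads, drawn at the 3 reads that this allows. Cd79b, Cd74, Ms4a1 and Ebf1 sit above the dashed line at an RPKM of 1 in both libraries, and the other 5 are at or below 0.101.

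Pax5, the factor that commits cells to the B lineage, had 0 exon reads in the untreated library, which allows up to 0.0449 RPKM, and 2 in the cycloleucine library, 0.0254 RPKM. Its introns carried 78 and 92 reads over a gene of 179 kb on chromosome 4 (44531145 to 44710487, minus strand, mm10). That was 0.441 and 0.520 intron reads per kb, while the 11133 annotated genes with introns that were silent in the untreated library had a median of 0.221 with an upper quartile of 0.523. In the cycloleucine library 10644 such genes had a median of 0.285 and an upper quartile of 0.623. Pax5 thus lay between the median and the upper quartile of silent genes in both libraries, but intron density sets silent genes apart only in part. Of the 4 genes that remained, Cd79b was at 12.1 per kb untreated, above the 95th percentile of silent genes at 2.35. Ebf1, Ms4a1 and Cd74 lay between 1.17 and 1.89 per kb, under that percentile but above 89.6% to 93.8% of silent genes. Scaled by library, the Pax5 intron reads stood at a ratio of 1.001 (95% interval 0.733 to 1.37) between cycloleucine and untreated.

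Ebf1, the factor that acts with Pax5 at the start of the B lineage, had 372 exon reads without and 438 with cycloleucine, or 1.41 RPKM (exact Poisson interval 1.27 to 1.56) and 1.41 RPKM (1.28 to 1.54). Both libraries thus gave the same low level, higher than in 71.8% of annotated features in the untreated library. Spliced RNA was present, with 96 and 110 reads across exon-exon junctions. Exon reads were 38.1 per kb against 1.17 intron reads per kb in the untreated library, and 446 intron reads were spread over the 391 kb gene on chromosome 11 (44617317 to 45008091, plus strand). Of the 5 transcription factor genes, Ebf1 was the 1 that remained.

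The promoters of Ebf1, which remained, and of Pax5 and Cd79a, which were silent, are shown side by side. With so few genes they are no comparison of remaining with silent genes. Each window runs from 250 bases before to 50 after a RefSeq start site, taken from RefSeq on GRCm38.p6, the assembly of mm10. The search covered 8 windows, from 6 of the 9 genes, and only those of Ebf1, Pax5 and Cd79a are printed. They lie at chr11:44617850-44618149 and chr11:44619978-44620277 on the plus strand for Ebf1, at chr4:44710645-44710944 on the minus strand for Pax5 and at chr7:24897247-24897546 on the plus strand for Cd79a. Capitals mark matches, on either strand, to any of 5 motifs searched: CCCNNGGGA for EBF1, the octamer ATGCAAAT bound by POU2F1 and POU2F2, GAGGAA as the core of SPI1 and SPIB sites, the E box CAGGTG of TCF3, and TGAGTCA of BACH2.
Ebf1 first start: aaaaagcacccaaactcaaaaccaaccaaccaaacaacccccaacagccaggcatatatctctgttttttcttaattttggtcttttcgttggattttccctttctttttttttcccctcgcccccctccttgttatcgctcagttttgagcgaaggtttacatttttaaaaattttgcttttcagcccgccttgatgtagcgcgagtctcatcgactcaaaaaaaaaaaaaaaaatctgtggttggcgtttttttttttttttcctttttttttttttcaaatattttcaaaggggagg
Ebf1 second start: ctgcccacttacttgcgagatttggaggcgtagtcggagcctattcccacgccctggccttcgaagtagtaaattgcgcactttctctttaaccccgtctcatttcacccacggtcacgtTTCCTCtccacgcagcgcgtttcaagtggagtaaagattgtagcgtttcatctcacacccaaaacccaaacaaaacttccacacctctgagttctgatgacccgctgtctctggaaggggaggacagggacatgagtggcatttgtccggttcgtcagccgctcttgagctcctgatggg
Pax5: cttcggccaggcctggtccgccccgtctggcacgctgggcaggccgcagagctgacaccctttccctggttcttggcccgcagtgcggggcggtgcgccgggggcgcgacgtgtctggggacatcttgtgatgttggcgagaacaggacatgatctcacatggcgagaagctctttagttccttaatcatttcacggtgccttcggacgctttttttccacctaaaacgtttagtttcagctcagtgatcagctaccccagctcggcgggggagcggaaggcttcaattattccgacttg
Cd79a: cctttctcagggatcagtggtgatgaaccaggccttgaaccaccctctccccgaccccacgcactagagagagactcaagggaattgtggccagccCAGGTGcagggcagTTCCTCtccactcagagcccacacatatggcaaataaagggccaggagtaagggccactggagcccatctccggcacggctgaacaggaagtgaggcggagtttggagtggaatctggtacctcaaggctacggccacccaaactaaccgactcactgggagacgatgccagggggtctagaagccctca

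GAGGAA or its reverse complement was found in 3 of the 8 windows, once each in the second Ebf1 window (130 bases before the start), the Cd79a window (140 bases before) and a Bcl6 window, where 28.3% of 32851 RefSeq promoter windows of this length hold it. The Cd79a window also held CAGGTG 154 bases before the start, and 20.2% of all windows hold it. CCCNNGGGA, ATGCAAAT and TGAGTCA were found in 0 of the 8 windows, and in 6.56%, 1.74% and 5.20% of all. The first Ebf1 window was the poorest in G and C, at 36.7%, against 53.0% in the second, 59.0% in Pax5 and 58.3% in Cd79a. A match is a run of letters and no measure of binding. Only exact letters were searched, so a site that departs from them is missed, and 0 matches does not mean that a window lacks a site. No motif of Pax5 was searched. The other 3 genes, Ms4a1, Cd79b and Cd74, were left out of the search, which does not mean that RefSeq lacks a start site for them. The counts out of 8 windows therefore do not cover all 9 genes.

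Bcl6, the repressor of germinal centre B cells, had 14 and 16 exon reads in the untreated and cycloleucine library (0.0770 RPKM, interval 0.0421 to 0.129, and 0.0747 RPKM, 0.0427 to 0.121). Of these, 1 and 3 lay across junctions. Its exon density of 2.09 reads per kb was close to its intron density of 0.994 in the untreated library, unlike the 4 genes that remained. It lies on chromosome 16 from 23965052 to 23988852, minus strand.

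Bach2, which represses Prdm1 in activated B cells, had 14 untreated and 32 cycloleucine exon reads, 0.0519 RPKM (0.0284 to 0.0871) and 0.101 RPKM (0.0689 to 0.142). It was too low for the rule for a ratio. Given after its values were seen, the ratio was 1.94 with a counting interval of 1.01 to 3.94, from 46 reads in all. From uniquely placed exon reads, 8 and 28, it was 3.04 (1.35 to 7.72). Junction reads, 2 without and 0 with cycloleucine, were too few to compare. Its introns held 240 and 278 reads over a 347 kb gene (chromosome 4, 32238804 to 32586108, plus strand), a ratio of 0.983 (0.824 to 1.17). Most of the Bach2 reads were thus intronic, 94.5% and 89.7% of its gene reads.

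Spib, on chromosome 7 from 44525995 to 44532071, had 3 and 4 exon reads and 0 junction reads in either library. Its introns held 2 and 5 reads. Levels of Bcl6, Bach2, Spib and Cd79a were in this order in the untreated library, from 0.0770 to 0.0253 RPKM, but the counting interval of each overlapped that of the next, so the order among them is not resolved at this depth.

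Cd79a and Cd79b encode the paired chains, Ig-alpha and Ig-beta, that form a heterodimer below surface immunoglobulin, and their RNA levels lay far apart. Cd79a, on chromosome 7 from 24897381 to 24902197, had 1 exon read in each library, 0.0253 and 0.0215 RPKM. Cd79b, on chromosome 11 from 106311341 to 106314762, minus strand, had 1962 exon reads without and 2407 with cycloleucine, 50.5 RPKM (48.3 to 52.8) and 52.6 RPKM (50.6 to 54.8). Per length, Cd79b thus stood 1998-fold above Cd79a in the untreated library, with a wide interval of 358 to 78943 because it rests on 1 Cd79a read.

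Cd79b RNA was spliced, with 321 and 429 junction reads against 24 and 42 intron reads, and 99.2% of its exon reads in the untreated library were uniquely placed. Its level was above that of 98.0% of annotated features there. The introns of Cd79a held 3 reads without and 14 with cycloleucine, a ratio of 3.96 with an interval of 1.11 to 21.5, and no read of either library crossed a Cd79a junction. In RNA from a whole culture, fewer cells with a transcript and less of it per cell cannot be told apart, so these levels do not say how many cells carried Cd79b RNA.

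**Figure D2:**
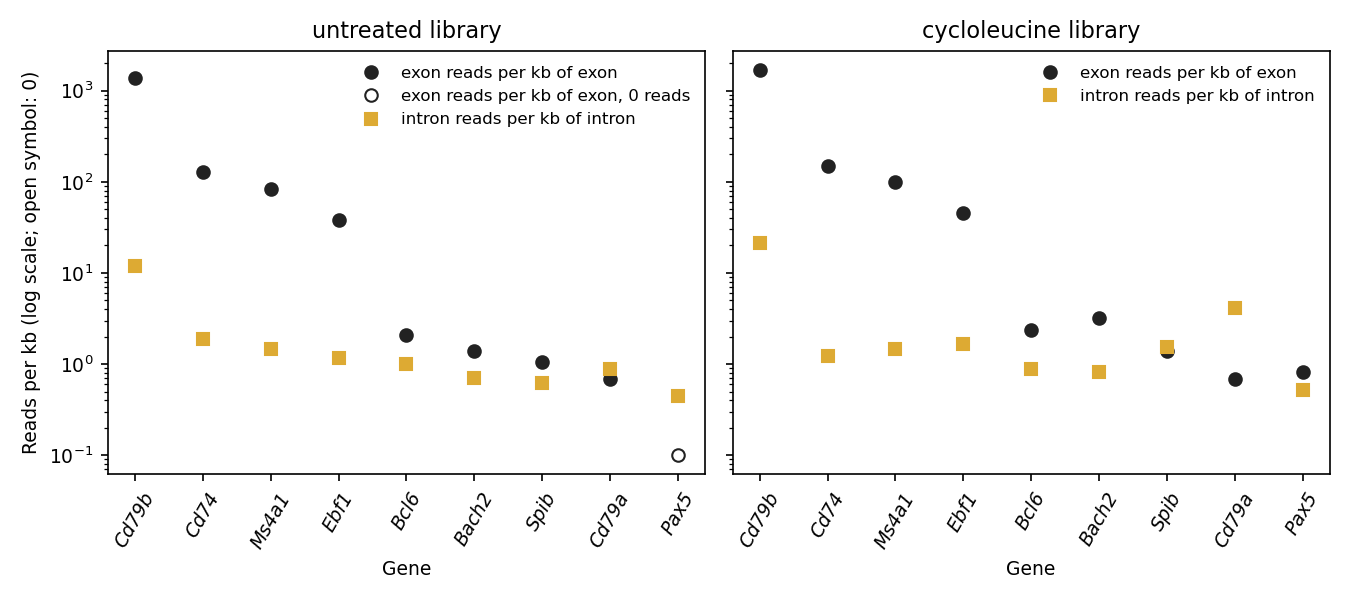
Exon reads per kb of exon (black circles) and intron reads per kb of intron (yellow squares) of each gene in the untreated (left) and cycloleucine (right) library, on log axes; the open circle marks 0 exon reads of Pax5. In Cd79b, Cd74, Ms4a1 and Ebf1 exon density is far above intron density, and in the other 5 genes both lie at or below 4.17 reads per kb.

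Ms4a1, the gene of the B cell surface protein CD20, had 509 exon reads without and 614 with cycloleucine, 3.03 RPKM (2.77 to 3.31) and 3.11 RPKM (2.87 to 3.36). It had 15 intron reads in each library, so exon density was 82.3 reads per kb against 1.45 in introns in the untreated library. Only 34.8% and 28.3% of its exon reads counted as uniquely placed, and all of these, 177 and 174, crossed an exon-exon junction. Such a share was rare: 121 of 8278 genes with at least 100 uniquely placed exon reads had at least 99% of them on junctions, and the median gene had 22.6%. Whether a read counts as uniquely placed by its place in the genome or by its feature is not stated. The other Ms4a1 exon reads therefore need not map to several places. Ms4a1 (chromosome 19, 11249675 to 11266241, minus strand) lies whole within the antisense gene 4930526L06Rik on the plus strand (11196817 to 11299886). That gene had 0 exon reads and 651 and 632 intron reads, of which 49 and 34 were uniquely placed. Since the use of strand is not given in the sources, reads inside Ms4a1 exons cannot be assigned to a strand here, while the junction reads are counted across annotated Ms4a1 introns. Of the 9 genes, Ms4a1 was the 1 that another feature spans.

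Cd74, the invariant chain that guides MHC class II molecules, had 182 exon reads without and 209 with cycloleucine, 4.76 RPKM (4.09 to 5.50) and 4.64 RPKM (4.03 to 5.31). Junction reads numbered 57 and 93, and intron reads 14 and 9. The gene lies on chromosome 18 from 60803848 to 60812646, plus strand. Its class II partners were not with it: Ciita, the master regulator of class II genes, had 0 exon reads in both libraries, and H2-Aa had 1 in each. Among the 4 genes that remained, levels ran from Cd79b over Cd74 and Ms4a1 to Ebf1 in both libraries, and no counting interval overlapped that of the next gene. From uniquely placed exon reads Ms4a1 had 28.6 reads per kb and Ebf1 35.1 in the untreated library, and 28.1 and 42.6 in the cycloleucine library. Those of Ms4a1 were junction reads only, while those of Ebf1 also lay off the junctions. This sets a part against a whole and cannot decide their order. By junction reads alone Ms4a1 had 177 and 174 and Ebf1 96 and 110. The other Ms4a1 exon reads cannot be assigned to a strand, so its RPKM carries that limit.

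After cycloleucine the 4 genes that could be compared stayed close to their untreated level. The ratio of cycloleucine to untreated was 1.04 for Cd79b (95% interval 0.981 to 1.11), 0.975 for Cd74 (0.795 to 1.20), 1.02 for Ms4a1 (0.909 to 1.15) and 0.9997 for Ebf1 (0.869 to 1.15). On the scale of log2 of RPKM plus 0.1 these were 0.06, -0.04, 0.03 and -0.00047, with 2 above and 2 below 0 and a median of 0.02, beside a median of 0.0035 over 9613 kept features, those whose RPKM reached 1 in one library or the other and whose exon reads summed to 50 or more. None of the 4 was at least 2-fold different, where 0.728% of kept features were higher and 0.666% lower by that much, and none was 1.5-fold different, where 5.49% were.

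Each of the 4 intervals from all exon reads held a ratio of 1. From uniquely placed exon reads that of Cd79b did not, at 1.07 (1.007 to 1.14), while those of Cd74, Ms4a1 and Ebf1 did. Among 6446 annotated features with as many reads as these genes (391 to 4369 over both libraries), 41.2% had an interval without 1. These intervals, exact (Clopper-Pearson) for the cycloleucine share of the reads of a gene, cover counting error only, and without molecular identifiers PCR copies of a molecule count as separate reads. The upper bounds allow a difference of at most 1.20-fold upward, and the lower bounds go down to 0.795, both set by Cd74, the gene with the fewest reads of the 4.

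Junction and intron reads gave wider values. Junction reads of Cd74 were 57 and 93, a ratio of 1.42 (1.01 to 2.01), and their share of its uniquely placed exon reads was 31.7% without and 44.5% with cycloleucine. Junction reads of Cd79b stood at 1.16 (1.003 to 1.35), those of Ebf1 at 0.996 (0.751 to 1.32) and those of Ms4a1 at 0.855 (0.689 to 1.06). The interval thus left out 1 in 2 of 4 genes, as it did in 28.3% of 7373 genes with at least 50 junction reads. Intron reads of Ebf1 were 446 and 635, a ratio of 1.21 (1.07 to 1.37) that its exon reads did not share. Those of Cd79b stood at 1.49 (0.879 to 2.57), of Ms4a1 at 0.849 (0.387 to 1.86) and of Cd74 at 0.546 (0.208 to 1.35), each from few reads. In 27.1% of 7771 genes with at least 50 intron reads the interval left out 1. Here only Ebf1 and Cd79b had that many, and the interval left out 1 for Ebf1 but not for Cd79b.

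**Figure D3:**
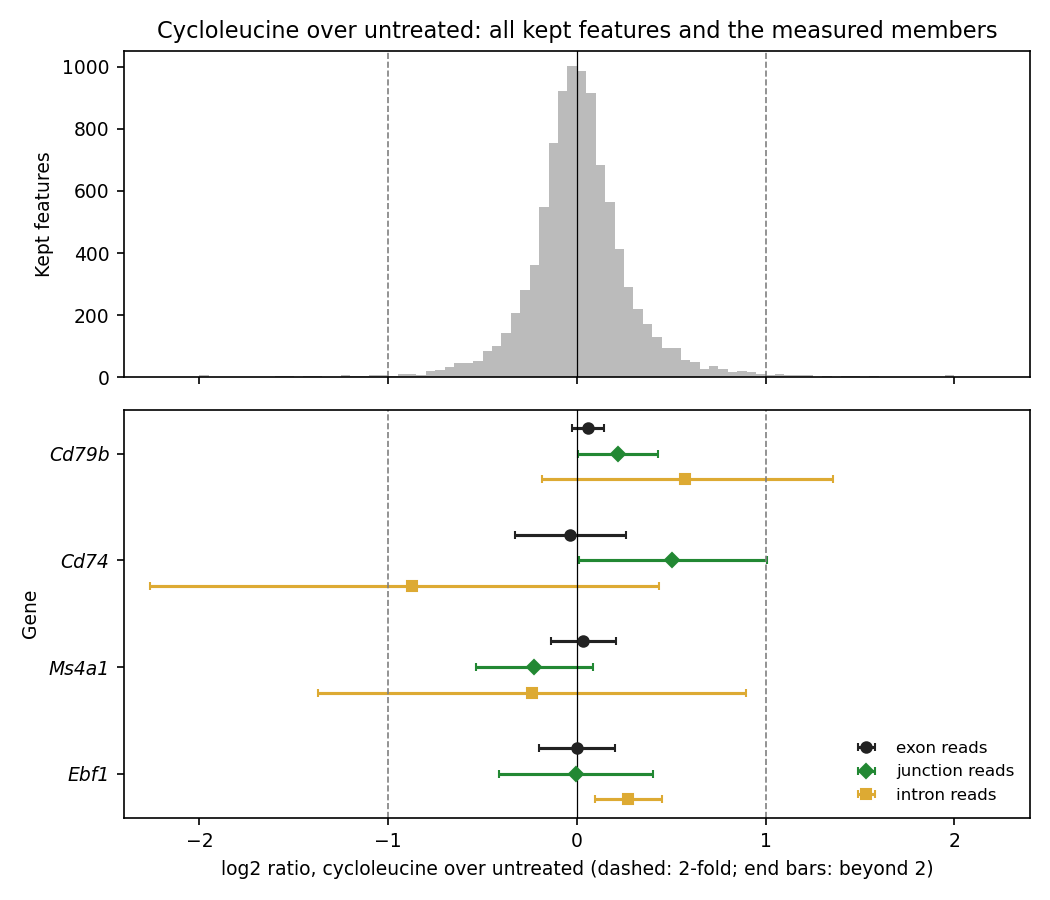
Top: number of kept features by log2 ratio of cycloleucine to untreated (RPKM plus 0.1). Bottom: log2 read ratio of the 4 measured genes from exon (black), junction (green) and intron (yellow) reads, with 95% counting intervals; dashed lines mark 2-fold. The exon ratios lie between -0.04 and 0.06, in the centre of the distribution, and the intron intervals of Cd74 and Ms4a1 are the widest.

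Other genes of the B cell programme were split in the same libraries. Over all annotated features 53.9% were silent in the untreated library and 30.2% remained, and the counts below are read beside these shares. Among 16 other B lineage transcription regulators 10 remained in the untreated library, 4 were at trace and 2, Irf8 and Klf2, were silent. Pou2af1, the octamer coactivator of B and plasma cells, was at 133 RPKM, the lymphoid factor Ikzf1 at 28.3, Mef2c at 23.7 and Tcf3, the E protein that works with Ebf1, at 18.2. Their median log2 change was -0.06, 4 above and 6 below 0. The largest were Pou2f2, the B cell octamer factor, at -0.49 and Spi1, which encodes PU.1, at 0.42, and neither reached 1.5-fold.

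Of 18 genes of B cell receptor signalling and coreceptors 9 remained. They include Cd81 at 34.2 RPKM, Cd24a at 28.3, the phospholipase gene Plcg2 at 23.3 and the adaptor gene Blnk at 21.5. The coreceptor gene Cr2 and the kinase gene Blk were silent, with 0 and 3 exon reads in the untreated library, and Cd22 had 21. The median log2 change of the 9 measured was -0.04, from Pik3ap1 at -0.41 to Cd53 at 0.21.

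In MHC class II presentation 9 of 15 genes were silent in the untreated library, where 53.9% of annotated features were. The 4 that remained were the lysosomal protease gene Ctss at 34.8 RPKM and the RFX complex genes Rfx5 at 3.74, Rfxank at 3.26 and Rfxap at 2.68, which act beside Ciita at class II promoters. The 5 measured genes had a median log2 change of 0.08, from -0.30 in Rfxap to 0.37 in Ifi30. Ifi30 passed the bound of 1 RPKM only with cycloleucine, at 1.15 against 0.865 untreated, so the filter favoured a value above 0 for it. Of 15 mature and germinal centre B cell genes 8 were silent and 2 remained, the chemokine receptor gene Cxcr4 at 51.4 RPKM and the BAFF receptor gene Tnfrsf13c at 7.04. The silent share was near the 53.9% of all annotated features. Of the 3 measured, Cxcr4 stood at 0.29, Tnfrsf13c at 0.17 and S1pr2 at 0.60, which is past 1.5-fold. S1pr2 was at 0.851 RPKM untreated and passed the bound of 1 only with cycloleucine, at 1.35. The filter thus favoured a value above 0 for it, and its sign adds nothing to the other 2. None of 9 pro-B and pre-B cell genes remained, and Rag1 and Rag2, the recombinase genes of early B cells, had 0 exon reads in both libraries.

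Genes that Pax5 is known to act on were counted beside its own silence. Of 15 genes that it activates, 4 of them members of the set described here, 7 were silent, 4 at trace and 4 remained: Blnk, Nedd9 at 3.94 RPKM, Ikzf3 at 1.71 and Ebf1. These counts are near the shares over all annotated features, 53.9% silent and 30.2% remaining. With no B cell library to compare, they do not say whether such genes had lost RNA. Of 11 genes that it represses 6 remained, among them Igj at 165 RPKM, Xbp1 at 154, Sdc4 at 20.6 and Prdm1 at 7.71. The medians of their log2 changes were 0.04 over 4 and 0.04 over 6 measured genes, with Nedd9 at 0.54, Cd28 at 0.53 and Notch1 at 0.21 the largest. The 13 measured plasma cell genes had a median of 0.04, with Cd28 and Slamf7, at 0.35, the highest.

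**Figure D4:**
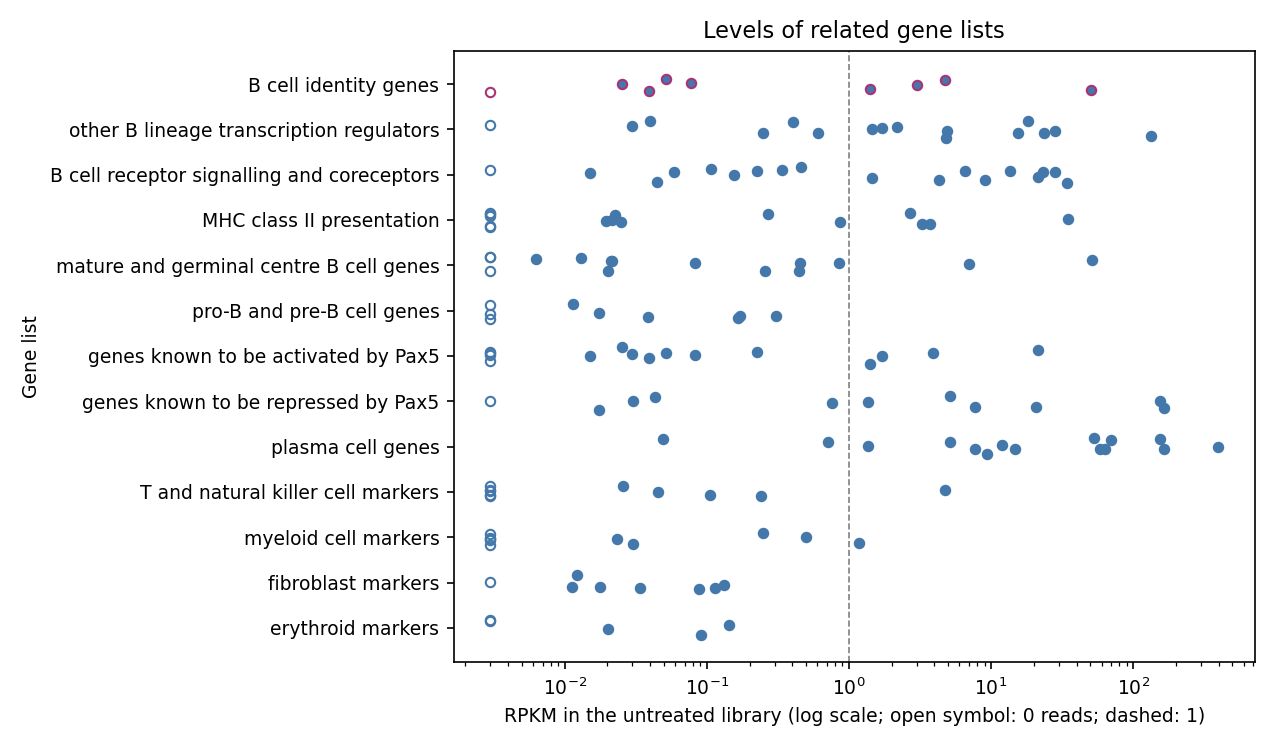
Level (RPKM, log scale) of every gene of each list in the untreated library; open circles mark 0 exon reads and the dashed line an RPKM of 1. The B cell identity genes fall into 4 above and 5 below the line, 13 of 15 plasma cell genes lie above it, and none of the pro-B and pre-B, fibroblast or erythroid genes do.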

How the data were processed

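RNA-seq of 2 libraries, 1 untreated and 1 given cycloleucine, was analysed from 1 deposited table. Per the file headers, the authors gave counts of all and of uniquely placed reads over genes, exons, exon-exon junctions and introns, and RPKM values. The deposited RPKM equalled exon reads (gene reads for features without a transcript) per kb of exon, scaled to the library's gene reads, in all 43346 features of both libraries, within a share of 0.0001. Reads were placed on mm10, per the submitters' processing notes. The aligner, counter, annotation release, strand use and the rule for a uniquely placed read are not stated in the sources used here. Starts in the table count from 0 and are printed plus 1, which gives the GENCODE M21 start for 7 of 9 members.

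The members and lists were chosen with earlier results of these data known. Kept features had an RPKM of 1 or more in one library or the other and 50 or more reads in all, and log2 fold changes used RPKM plus 0.1. With 1 library per group no test was possible, and a size rule of 2-fold was used. It was tried on simulated counts with counting error only and planted changes larger than 2-fold. That does not show how the rule does with spread between libraries. Junction reads are the uniquely placed ones, scaled by uniquely placed gene reads. Named genes were every member and, of each other list, the 4 highest in the untreated library, the 2 measured genes with the largest change and up to 6 silent ones; Cd22, Ciita and H2-Aa were B cell markers. Intervals are 95% and were computed with Python 3.11.15 and scipy 1.17.1. The table had 0 columns of other libraries. The result of 1 gene of the B cell receptor signalling list is not reported here.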

Additional observations from a re-analysis of the deposited data

How the results depend on the processing

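No paired analysis was possible because there was 1 library per group. Of 32 alternatives for the 4 member ratios, 23 stayed within the counting interval of the reported value, among them every change of pseudocount and of scaling. The others, in log2, were as follows. Intron reads alone gave 0.27 for Ebf1, -0.24 for Ms4a1, 0.57 for Cd79b and -0.87 for Cd74. Junction reads alone gave -0.23 for Ms4a1, 0.22 for Cd79b and 0.50 for Cd74, and exon reads off the junctions, chosen after seeing the data, -0.34 for Cd74. Uniquely placed reads gave -0.21 for Ms4a1, where they are all junction reads. The cause was not tested. Bach2, too low for the rule, stood at a ratio of 3.04 from uniquely placed reads against 1.94 from all. The number of members that remained was 4 under a bound of 0.5 RPKM and from uniquely placed reads, and 1, Cd79b, under a bound of 5 RPKM.

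By the 2-fold rule 70 features were higher and 64 lower. These counts were 1181 and 1214 with no filter, 33 and 22 above 5 RPKM, 35 and 26 with a pseudocount of 1, 42 and 22 with uniquely placed reads, and, chosen after seeing the data, 34 and 40 with annotated features and 13 and 18 with annotated and mostly unique ones. More features enter with no filter and fewer under the restrictions. The medians of the 7 lists with at least 3 measured genes stayed within the median counting interval of their genes in 14 of 14 alternatives. Depth limits Pax5, Spib and Cd79a, whose levels rest on at most 4 exon reads.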
